A study of Mesocricetus auratus with 6 samples.

Results

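Retinoic acid, the active derivative of vitamin A, was followed here through the genes of its synthesis (Rdh10, Aldh1a1, Aldh1a2 and Aldh1a3), its supply and cell uptake (Rbp4 and Stra6), its binding in the cytoplasm (Crabp1 and Crabp2) and its clearance (Cyp26a1) in the uterus of the pregnant golden hamster. All probe sets of the mouse expression array whose platform annotation gave exactly 1 gene symbol equal to one of these 9 names were taken. That gave 11 of the 22626 probe sets tested, 3 of them for Aldh1a3 and 1 for each of the other genes. All 9 genes were thus measured, and 7 of the 9 symbols were also found as hamster symbols in RefSeq (assembly BCM_Maur_2.0). The symbols Aldh1a1 and Cyp26a1 were not found there. Symbols follow the mouse annotation, and no sequence or position is given.

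The samples were untreated pregnant Syrian golden hamsters of the species Mesocricetus auratus, taken on day 5 of pregnancy, with 3 arrays of uterine tissue where an embryo was implanting and 3 arrays of the uterine wall between such places, labelled interimplantation and non-embryo. The age, strain and number of sites per RNA sample are not given in the sources used here, nor is whether embryo tissue stayed in the implantation samples. The design text states that 3 different animals gave the RNA sets, and no source states whether arrays of the same number in both groups share an animal. The question of the comparison was which transcripts differ between the place of blastocyst attachment and the adjoining uterine wall.

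Retinol circulates bound to retinol binding protein and enters cells through a membrane receptor. It is oxidised to retinaldehyde by retinol dehydrogenases, and retinaldehyde dehydrogenases then make retinoic acid irreversibly. Retinoic acid is held by small cytoplasmic binding proteins, acts in the nucleus through retinoic acid receptors paired with retinoid X receptors, and is removed by cytochromes P450 of the Cyp26 family. In the rodent uterus, stromal cells are known as a site of Aldh1a2 expression, and in the mouse Cyp26a1 is known from the uterine epithelium around the time of implantation.

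Values are log2 signals made by RMA (robust multi-array averaging), which aligns the distributions of the arrays, so that every difference is relative to what most probe sets do. Array medians ran from 4.55 to 4.57. Groups were compared with limma over all 22626 probe sets, a difference is implantation minus interimplantation on the log2 scale with its standard error (SE), and a probe set was called at a Benjamini-Hochberg adjusted p under 0.05. Another scaling moves all differences together: 18 hybridisation control probe sets, spiked into each sample, averaged 6.64 ± 0.17 on the implantation arrays and 7.03 ± 0.27 on the interimplantation arrays (SD, n = 3), and scaling to them raised the overall median difference from −0.02 to 0.38. All probe sets share the array shifts of that scaling, and the shifts rest on 3 arrays a group. The p-values under it therefore overstate the certainty. The probes match mouse sequence, so a mismatch with hamster RNA can dim a probe set or shrink its difference, and levels of different genes were not ranked. Which hamster transcript each probe set reads was not tested, also for members of families with similar genes. Only Stra6 and Cyp26a1 had a mean above the brightest of 27 Bacillus controls (5.79), to which no hamster RNA corresponds. An Aldh1a3 probe set (1448789_at) lay at 2.45, below the median of these controls (2.68), while the other 10 probe sets were above it.

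At the implantation site Aldh1a2 rose 1.79-fold, and it was the 1 probe set of the 11 called. Stra6 was 1.34-fold higher by its mean and Cyp26a1 1.27-fold lower, in both cases with no overlap between the groups and with no call. The other 8 probe sets overlapped between the groups. In the whole table, 1.26% of the probe sets were called higher and 1.05% lower, so that a single call among 11 probe sets is a statement about Aldh1a2 and not about the set. By limma, 0 members were called lower, and at an unadjusted p under 0.05 there were 2 members higher and 2 lower, with 14.0% of all probe sets under that p. The groups did not overlap in 3 of the 11, 2 higher and 1 lower, against 19.3% of all probe sets, of which 7.62% were higher and 11.7% lower. The median difference was 0.07 over the 11 probe sets and −0.02 over all.

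**Figure D1:**
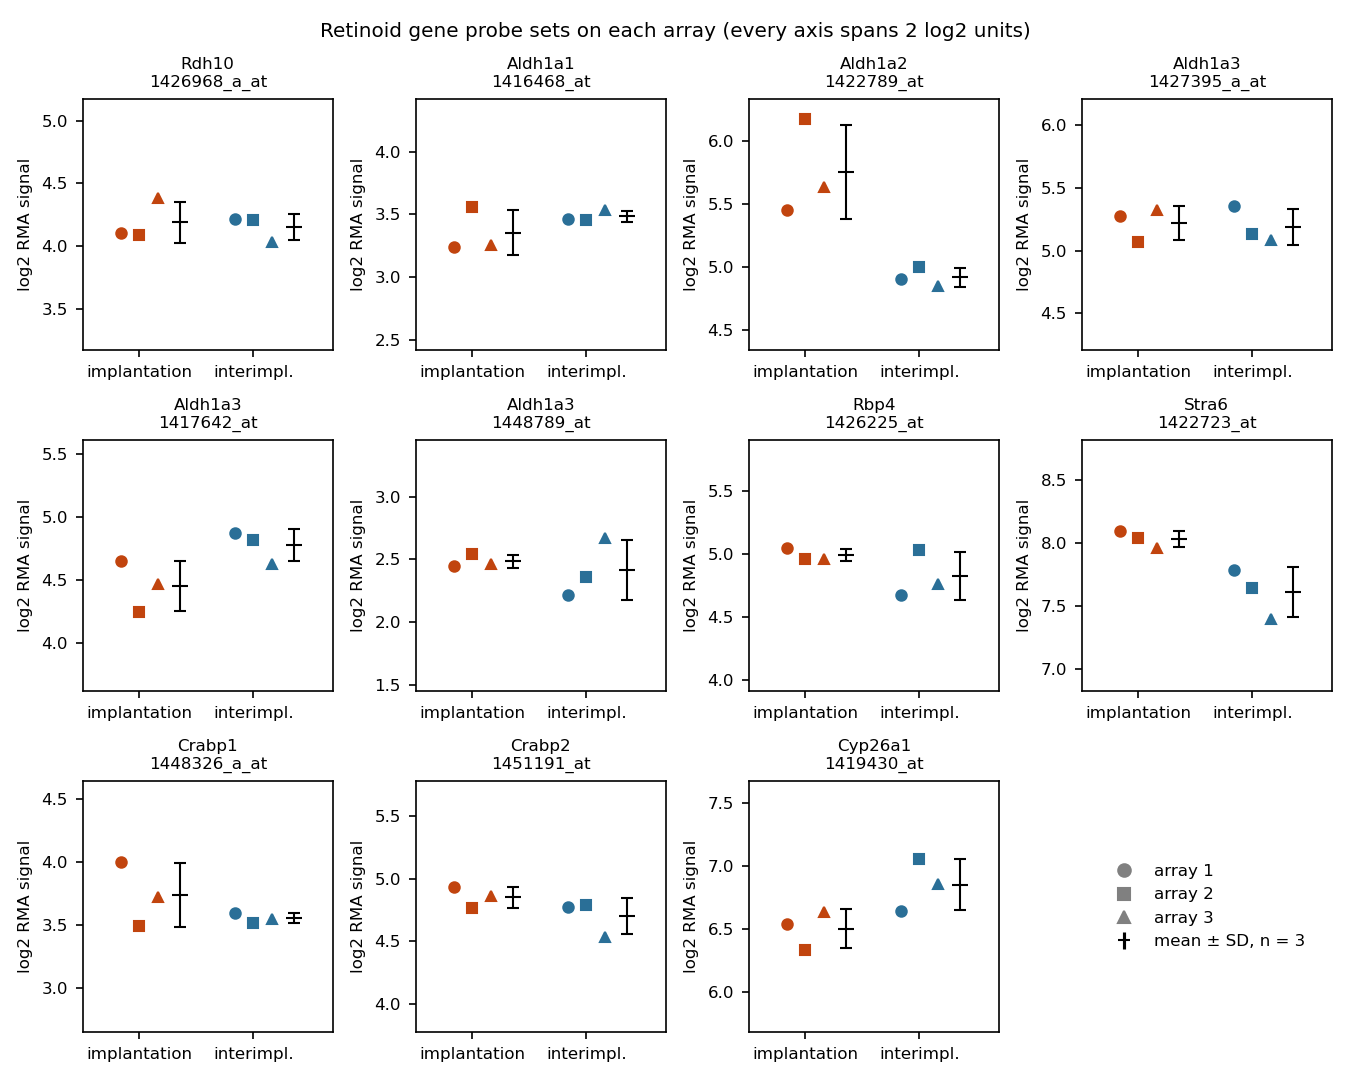
Log2 RMA signal of each of the 11 retinoid probe sets on the 3 implantation arrays (orange) and the 3 interimplantation arrays (blue), with the mean and SD of each group in black and every vertical axis spanning the same number of log2 units. All implantation arrays lie above all interimplantation arrays for Aldh1a2 and Stra6, below them for Cyp26a1, and the groups overlap in the other 8 panels.

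Among the synthesis genes, 1 of the 3 retinaldehyde dehydrogenases was called. Aldh1a2 (probe set 1422789_at) encodes the enzyme that supplies most retinoic acid in the early mouse embryo. Its signal was 5.46, 6.18 and 5.64 on implantation arrays 1, 2 and 3, and 4.91, 5.00 and 4.85 on interimplantation arrays 1, 2 and 3. The lowest implantation array was 0.46 above the highest interimplantation array, and the implantation arrays were spread more widely (SD 0.37 against 0.08, n = 3 each), with array 2 the highest. The group means of 5.76 and 4.92 differed by 0.84 (SE 0.15, 95% interval 0.52 to 1.16, limma adjusted p = 0.0112). That is a fold of 1.79 (95% interval 1.43 to 2.24). A difference of this size or larger in either direction was found in 0.331% of all probe sets, and 45 probe sets called higher, Aldh1a2 among them, differed at least as much. Without implantation array 2 the difference was 0.63 (adjusted p = 0.0168). Without interimplantation array 3 it was 0.80 and was no longer called (adjusted p = 0.0512). The adjusted p ran from 3.94e-06 to 0.0512 over the 13 alternative settings, and the difference was 1.24 with scaling to the hybridisation controls, a setting whose p-values overstate the certainty.

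Rdh10, the retinol dehydrogenase of the preceding step in the embryo, was not called. Its signal (1426968_a_at) was 4.10, 4.09 and 4.38 at implantation sites and 4.22, 4.21 and 4.03 between them. The difference was 0.04 (95% interval −0.18 to 0.26, limma adjusted p = 0.908), which leaves room for a change of up to 1.20-fold. Aldh1a1, another retinaldehyde dehydrogenase, gave 3.25, 3.56 and 3.26 against 3.46, 3.46 and 3.53. Implantation array 2 was the highest of all 6 arrays for Aldh1a1 and the other 2 implantation arrays were the lowest, and the difference of −0.13 had an interval from −0.34 to 0.08 (adjusted p = 0.624).

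Aldh1a3, a further enzyme of this family, was measured by 3 probe sets, and none was called. The probe set 1417642_at read 4.65, 4.25 and 4.47 at implantation sites and 4.87, 4.82 and 4.63 between them, so that implantation array 1 reached just above interimplantation array 3. Its difference was −0.32 (95% interval −0.56 to −0.08) and was not called (limma adjusted p = 0.189). The brighter 1427395_a_at was at 0.03 (95% interval −0.19 to 0.25, adjusted p = 0.933), with 5.27, 5.07 and 5.32 against 5.35, 5.13 and 5.09. The probe set 1448789_at, below the median Bacillus control, was at 0.07 (95% interval −0.17 to 0.31, adjusted p = 0.844), and interimplantation arrays 1 and 3 (2.21 and 2.67) were its lowest and highest values. Its sign was not weighed, and with the other 2 probe sets at −0.32 and 0.03 no direction is given for Aldh1a3.

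Of the supply genes, Stra6 (1422723_at), is the membrane receptor that takes up retinol from its carrier. It read 8.09, 8.04 and 7.96 at implantation sites and 7.79, 7.64 and 7.40 between them. The 3 implantation arrays stayed within a narrow band (SD 0.07), above every interimplantation array (SD 0.20), with a gap of 0.17. The means of 8.03 and 7.61 differed by 0.42 (SE 0.10, 95% interval 0.20 to 0.65), and the adjusted p of 0.0598 missed the threshold. Stra6 passed it in 4 alternatives. The adjusted p was 0.0141 when interimplantation array 1 was left out (difference 0.51), 0.0215 under array weights (0.47), 0.0369 when replicate numbers entered as a block, and 0.00925 after scaling to the hybridisation controls (0.82). The last of these overstates the certainty, since all probe sets share the array shifts of the scaling. Without implantation array 1 the adjusted p was 0.244, the highest of its 13 alternatives.

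Rbp4, the carrier of retinol in blood, read 5.05, 4.96 and 4.96 at implantation sites and 4.67, 5.03 and 4.76 between them (1426225_at). Interimplantation array 2 lay within the implantation arrays, and the difference of 0.17 (95% interval −0.05 to 0.39) was not called (limma adjusted p = 0.503).

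The cytoplasmic binding proteins had small positive differences, with overlapping groups and no call. Crabp2 (1451191_at), which delivers retinoic acid to the receptors, read 4.93, 4.77 and 4.86 against 4.77, 4.79 and 4.54, a difference of 0.15 (95% interval −0.06 to 0.36, limma adjusted p = 0.537). Crabp1 (1448326_a_at), its close relative, read 4.0, 3.49 and 3.72 against 3.60, 3.51 and 3.54, and implantation arrays 1 and 2 were its highest and lowest values. Its difference was 0.18 (95% interval −0.07 to 0.44, adjusted p = 0.537). The upper ends of these intervals are 1.28-fold for Crabp2 and 1.35-fold for Crabp1.

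Cyp26a1 (1419430_at), the enzyme that hydroxylates retinoic acid for clearance, pointed the other way from Aldh1a2. It read 6.54, 6.33 and 6.63 at implantation sites and 6.64, 7.05 and 6.86 between them. The groups did not overlap, but implantation array 3 and interimplantation array 1 were only 0.01 apart. The means of 6.50 ± 0.15 and 6.85 ± 0.21 (SD, n = 3) differed by −0.35 (SE 0.11, 95% interval −0.60 to −0.10, limma adjusted p = 0.169). It was called only without interimplantation array 1 (−0.45, adjusted p = 0.0404) among its 13 alternatives. With scaling to the hybridisation controls its difference was 0.05 (adjusted p = 0.837), so its direction holds only relative to most other probe sets.

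**Figure D2:**
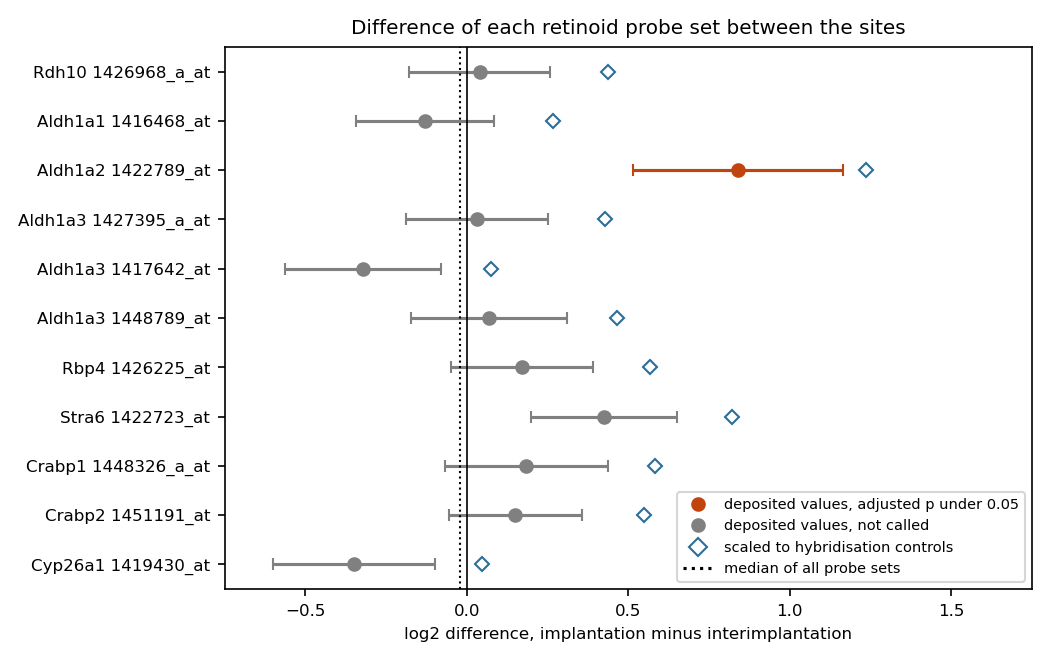
Log2 difference of each of the 11 probe sets, implantation minus interimplantation, as points with 95% intervals from limma (orange where called, grey where not), the same difference after scaling to the hybridisation controls as open diamonds, and the median of all probe sets as a dotted line. Aldh1a2 stands at 0.84 and is the only point called; the diamonds lie about 0.40 to the right of the points, and that of Cyp26a1 lies at 0.05.

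**Figure D3:**
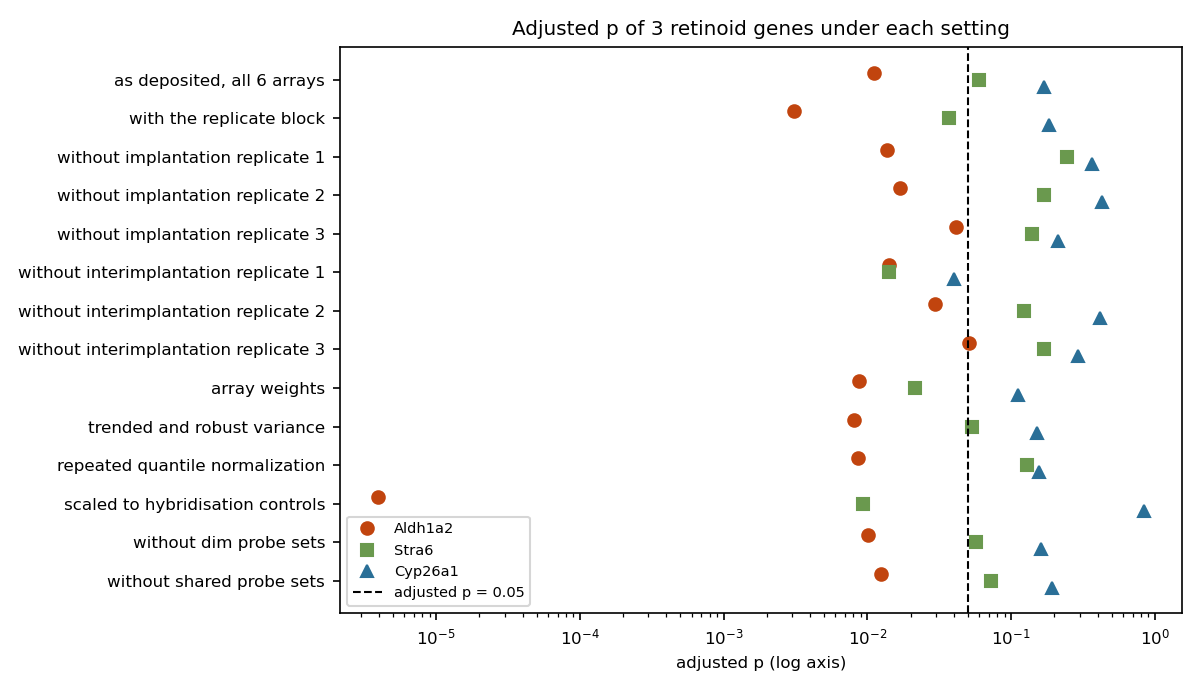
Benjamini-Hochberg adjusted p from limma (log axis) of Aldh1a2 (circles), Stra6 (squares) and Cyp26a1 (triangles) for the deposited values and under each of the 13 alternative settings, with a dashed line at 0.05. Aldh1a2 lies left of the line but for the setting without interimplantation array 3 (0.0512), Stra6 lies on either side of it, and Cyp26a1 is left of it only without interimplantation array 1 (0.0404).

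Beyond the 9 genes, 92 other genes of retinoid handling and response were listed, of which 71 were measured. Each was represented by its probe set with the highest mean. By limma 1 of the 71 rose, 0 fell and 70 were not called, where 1.36% of all genes were called higher and 1.18% lower by the same rule. At an unadjusted p under 0.05 there were 4 higher and 5 lower. Over all probe sets 14.0% were under that p, the share to read beside each such count of a list below. The median difference was −0.04 over the 71 genes and −0.02 over all genes.

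The gene that rose was Rara, which encodes retinoic acid receptor alpha. It read 5.22, 5.41 and 5.08 at implantation sites and 4.69, 4.65 and 4.79 between them (1450180_a_at), without overlap. Its mean over all arrays (4.97) lay below that of the brightest Bacillus control (5.79). The difference was 0.53 (SE 0.10, 95% interval 0.32 to 0.74, limma adjusted p = 0.0136). The call did not survive leaving out implantation array 1 (adjusted p = 0.0723), implantation array 2 (0.0627) or interimplantation array 2 (0.0516). Of the 13 measured receptors and coregulators Rara was the only one called, and 9 of the 13 differences were negative. Rarb, the receptor gene that is itself a classical target of retinoic acid, was at −0.09 (95% interval −0.30 to 0.12, adjusted p = 0.741), Rarg at −0.06 (95% interval −0.34 to 0.21), Rxra at −0.04 (95% interval −0.22 to 0.13) and Rxrb at 0.07 (95% interval −0.15 to 0.29). The coactivators Ncoa1 (−0.18) and Crebbp (−0.13) were not called (adjusted p = 0.512 and 0.572), nor was the coregulator Pnrc1, whose probe set lay below the median Bacillus control.

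None of the 25 other enzymes of retinoid metabolism was called by limma, and 1 of them was under an unadjusted p of 0.05. By their brightest probe sets, their differences ran from −0.22 for Rdh13 to 0.14 for Dhrs3, a retinaldehyde reductase that retinoic acid is known to induce (adjusted p = 0.326 and 0.503). Rdh7 was at −0.15 and Dgat1, which can esterify retinol, at −0.15. Dimmer probe sets of these enzymes went further, with Aldh8a1 at −0.28 and Lpl at 0.26, groups apart in both, and were not called either (adjusted p = 0.125 and 0.224). None of the 7 other carriers was called either, with 2 under an unadjusted p of 0.05. Lrp2, the endocytic receptor megalin, which takes up retinol binding protein in the kidney, was at −0.30 with groups apart (adjusted p = 0.101). Fabp5, which can carry retinoic acid to another nuclear receptor, was at 0.21, Rbp3 at 0.16 and the scavenger receptor Scarb1 at −0.11. The last 3 had adjusted p from 0.353 to 0.682. Dimmer probe sets of these carriers read otherwise, with Lrp2 at −0.13, Fabp5 at 0.0019 and Scarb1 at −0.32 and −0.04. The groups overlapped in all of them, and none was called (limma adjusted p from 0.316 to 0.996).

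None of the 30 measured genes known to respond to retinoic acid was called by limma. At an unadjusted p under 0.05 there were 5 of the 30, where 14.0% of all probe sets were under that p. Of the 30 differences 21 were negative, with a median of −0.06 against −0.02 over all genes. The listed genes were not sorted by whether retinoic acid raises or lowers them. These signs therefore do not show whether a retinoic acid response was higher or lower. Meis1, a homeobox gene, came closest: it read 4.23, 4.43 and 4.04 at implantation sites and 4.65, 4.62 and 4.67 between them, a difference of −0.41 (SE 0.10, adjusted p = 0.0609). It was called without implantation array 2 (−0.51, adjusted p = 0.0343) and with array weights (−0.44, adjusted p = 0.0308), and was at −0.01 with scaling to the hybridisation controls. Tgm2, a transglutaminase long known as a retinoic acid target, was at 0.30 by its brightest probe set with groups apart (adjusted p = 0.130), and 1 of its 6 probe sets was negative (−0.09). Fgf8 was at 0.28 and Pdk4 at −0.21 (adjusted p = 0.212 and 0.252). With scaling to the hybridisation controls, where p-values overstate the certainty, Tgm2 and Fgf8 were called (adjusted p = 0.0420 and 0.0481).

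**Figure D4:**
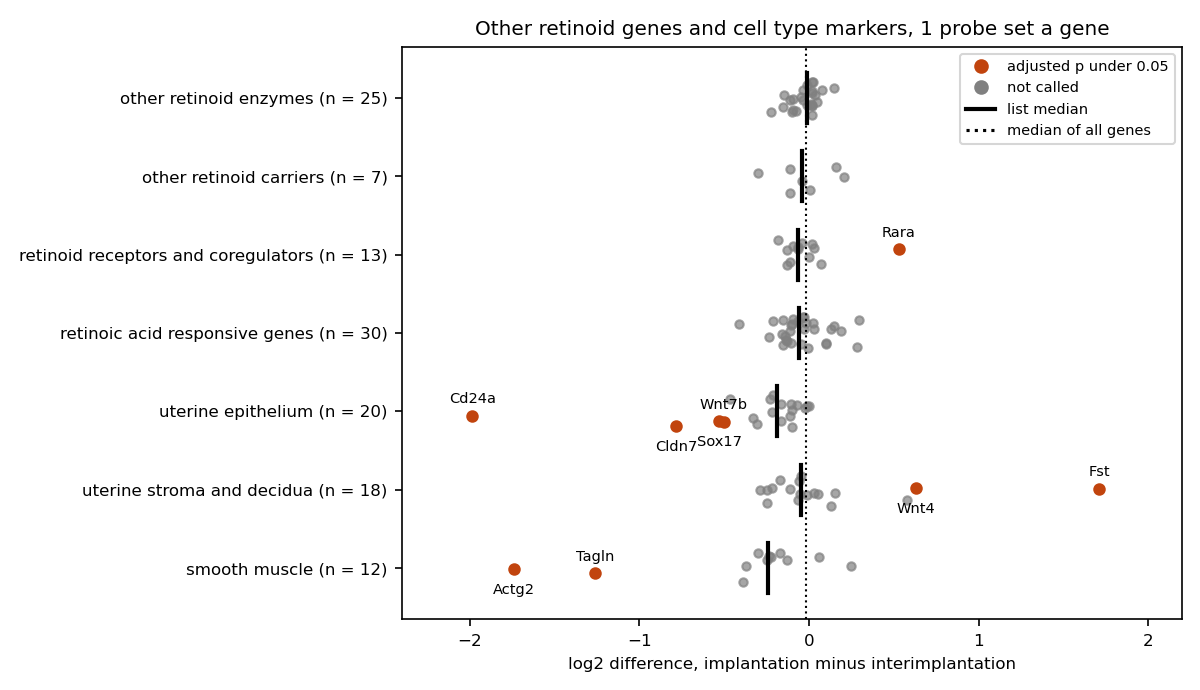
Log2 difference, implantation minus interimplantation, of each measured gene of 4 retinoid lists and 3 cell type marker lists, 1 probe set a gene, with called genes in orange and named, list medians as black bars and the median of all genes as a dotted line. Among the retinoid lists the only called gene is Rara at 0.53. The called epithelial and smooth muscle markers lie to the left, from Wnt7b at −0.50 to Cd24a at −1.99. The called stromal markers Wnt4 (0.63) and Fst (1.71) lie to the right.

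The samples were whole uterine tissue, in which more cells of a type and more RNA per cell cannot be told apart, and cell type markers differed between the groups on the same arrays as Aldh1a2 and Cyp26a1. Of 18 stromal and decidual markers 2 rose, the activin antagonist Fst (1.71, limma adjusted p = 1.34e-04) and the stromal ligand Wnt4 (0.63, adjusted p = 0.00633), and 0 fell, with 5 under an unadjusted p of 0.05 in either direction. The median of the list was −0.05, and its mean signal ran from 6.14 to 6.22 on the implantation arrays and from 6.03 to 6.13 on the interimplantation arrays. The general stromal genes Vim (−0.29), Pdgfra (−0.25) and Hoxa10 (−0.17) were not called (adjusted p from 0.293 to 0.556). Nor were Col1a1 (0.15), Pdgfrb (0.03), Col3a1 (−0.01) and Dcn (−0.05), with limma adjusted p from 0.580 to 0.977. Of the 18 differences 7 were positive and 11 negative. The stromal transcription factor Hand2 was at 0.58 (adjusted p = 0.0685).

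Of 20 epithelial markers 4 fell and 0 rose, with 10 under an unadjusted p of 0.05, a median of −0.19 and 19 negative differences. The general epithelial genes Cdh1 (−0.11), Muc1 (−0.02), Epcam (−0.01) and the keratin Krt19 (0.00068) overlapped between the groups and were not called (adjusted p from 0.756 to 0.999). The other 3 listed keratins, Krt18 (−0.47), Krt7 (−0.22) and Krt8 (−0.16), were lower with groups apart. They were not called either (limma adjusted p from 0.0866 to 0.403). Of the 20 markers 12 had groups apart and lower and 0 apart and higher, against 11.7% and 7.62% of all probe sets. Mean signals of this list were 4.92 to 5.01 at implantation sites and 5.27 to 5.34 between them. The 4 called lower were Cd24a (−1.99, limma adjusted p = 6.74e-07), Cldn7 (−0.78, adjusted p = 0.00868), Wnt7b (−0.50, adjusted p = 0.0112) and Sox17 (−0.53, adjusted p = 0.0467). With scaling to the hybridisation controls the last 3 were not called (adjusted p from 0.155 to 0.644), and Sox17 was also not called without implantation array 1 or 3 or any 1 of the interimplantation arrays (adjusted p from 0.0641 to 0.174). Wnt7b was not called without implantation array 1 (adjusted p = 0.0768). Of 12 smooth muscle markers Tagln (−1.26, adjusted p = 0.00343) and Actg2 (−1.74, adjusted p = 0.00621) fell and 0 rose. At an unadjusted p under 0.05 there were 6 lower and 1 higher, and 10 of the 12 differences were negative. Synpo2, an actin-binding protein, was at 0.25 with groups apart (adjusted p = 0.220), and the smooth muscle myosin Myh11 at 0.06 (adjusted p = 0.836). Mean signals of this list were 5.52 to 5.73 against 5.90 to 6.20. With a trended and robust variance Actg2 had an adjusted p of 0.153 and was not called. The part of these cell types in the differences of Aldh1a2, Stra6, Cyp26a1 and Rara was not tested.

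No marker of mesothelium (5 measured), endothelium (10), immune cells (12), erythroid cells (3) or trophoblast and embryo (10) was called by limma. At an unadjusted p under 0.05 there were 2 immune and 1 erythroid markers and 0 of the other lists. The trophoblast and embryo markers had a median of −0.05, with mean signals of 4.49 to 4.50 at implantation sites and 4.49 to 4.61 between them, and 2 of the 10 were above the brightest Bacillus control. As to the tissue itself, 11 of the 18 stromal, 5 of the 12 smooth muscle and 6 of the 20 epithelial markers were above that control.

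Over the 6 arrays the pattern of Aldh1a2 was most like that of Klhl9 (Pearson correlation 0.994), Slc30a7 (0.993), Tap1 (0.993), Nid2 (0.986) and Tmem38b (0.986), the 5 genes with the highest correlation among all single-symbol probe sets. The arrays share their group, and each of these genes had a positive difference, from 0.18 for Slc30a7 to 0.33 for Klhl9. None of the 5 was called by limma (adjusted p from 0.0972 to 0.353).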

How the data were processed

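The authors hybridised hamster uterine RNA to a mouse Affymetrix array, with total RNA extracted by Trizol per the labels' protocols. The deposited table holds log2 values from Partek 6.6 and RMA, per the submitters' processing notes. The log base and the order of steps are not given in the sources used here. Base 2 was assumed because RMA normally gives it and the values span a matching range, and every fold depends on it. Of 22690 probe sets, 64 controls were left out, and 20380 of the rest had 1 gene symbol in the platform annotation.

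Both groups entered 1 linear model per probe set (limma 3.58.1 under R 4.3.3, moderated by eBayes, group alone as predictor, two-sided, without a level filter), which was first run on simulated data. That run checked the code at added differences larger than that of any member, and is not used as support for the calls. The number of arrays limits the precision, and p-values measure the spread between 3 arrays a group. Named were all member probe sets, called genes of each list, the 4 genes of smallest p in each retinoid list and the 5 genes most correlated with the member of smallest p. Other genes with values were chosen for their role or after their values were seen. Members and lists were chosen with earlier results of these data known. Alternatives were a replicate block, leaving out each array, array weights, a trended and robust variance, repeated quantile normalization, scaling to hybridisation controls, leaving out dim or shared probe sets, and, for the gene lists, averaging all probe sets of each gene.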

Additional observations from a re-analysis of the deposited data

How the results depend on the processing

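Aldh1a2 was called in 12 of 13 alternatives and Rara in 9 of 12, and both differences were positive in every one. With the replicate number as a block, 2 member probe sets were called higher, Aldh1a2 and Stra6, and no other call of a member or a listed retinoid gene changed. Deviations from the group means correlated at −0.09, 0.07 and −0.03 for numbers 1, 2 and 3, and not every array correlated best with its own number. Implantation array 1 with interimplantation array 3, and implantation array 3 with interimplantation array 1, both gave 0.10. With 3 arrays a group such values cannot show whether arrays share an animal. Array weights gave 2 members higher, 1 listed retinoid gene lower (Meis1) and 363 of all probe sets lower, in place of 238. With scaling to the hybridisation controls 2 members and 3 listed genes (Rara, Tgm2 and Fgf8) were higher, and 752 of all probe sets were higher and 13 lower, in place of 284 and 238. That fit gave every probe set the same standard error (0.22), and its p-values and counts of calls overstate the certainty. With it these negative differences became positive: Aldh1a1 0.27, Aldh1a3 (1417642_at) 0.075, Cyp26a1 0.047, Rdh13 0.17, Rdh7 0.24, Dgat1 0.25, Lrp2 0.10, Scarb1 0.28, Ncoa1 0.22, Pnrc1 0.27, Crebbp 0.26 and Pdk4 0.18. The scaling adds 0.40 to every difference, so any other negative difference smaller than that also turns positive, among them those of Rarb, Rarg, Rxra, Vim, Pdgfra and Hoxa10 and the medians of the epithelial and smooth muscle markers. Averaging all probe sets of each gene left Rara as the 1 listed gene called. Without shared probe sets (suffixes x, s and a) 138 were higher and 96 lower, and 0 listed genes were called, since the probe set of Rara is one of them. Leaving out each array in turn gave 0 to 2 members higher and 0 to 1 lower, 0 to 1 listed genes higher and 0 to 1 lower, and 117 to 329 of all probe sets higher and 88 to 401 lower. In those fits Rdh10 ran from −0.055 to 0.089, and Aldh1a3 from −0.021 to 0.11 (1427395_a_at) and from −0.032 to 0.20 (1448789_at), so these 3 have no settled direction. Why single arrays change the calls was not tested. Leaving out dim probe sets removed 1448789_at, and the other members kept their side of the threshold.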

Other observations

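Other members of the enzyme families to which the synthesis and clearance genes belong were also measured. They were taken by symbol after the results were seen, with 1 probe set a gene. Of 14 other aldehyde dehydrogenases none was called by limma and 2 were under an unadjusted p of 0.05 (14.0% of all probe sets were), with a median difference of −0.05 and a range from −0.33 to 0.13. The lowest was Aldh1l1, an enzyme of folate metabolism, which read 5.32, 5.36 and 5.46 at implantation sites and 5.62, 5.72 and 5.78 between them (limma adjusted p = 0.0718). Of 62 other cytochromes P450, 1 fell and 0 rose, with 6 under an unadjusted p of 0.05 and a median of −0.03. Over all genes 1.18% were called lower, so this count says nothing about the family. The one that fell was Cyp2c50, which read 3.94, 3.89 and 3.98 at implantation sites and 4.26, 4.48 and 4.59 between them, a difference of −0.50 (SE 0.10, adjusted p = 0.0173). The Cyp2c genes are a family of closely similar copies in rodents, so which hamster gene this mouse probe set reads is uncertain.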
